A study of Mus musculus with 6 samples.

Results

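The genes described here are 32 genes of cholesterol synthesis, uptake, transport and control, of 27179 genes in the deposited expression table. They were chosen by function, with earlier results of the same comparison known, and were found by matching their symbols to the table. All 32 had a mean of at least 1 CPM (reads scaled to a common library size) over the 6 libraries, which was the level needed for testing. They fall into 8 mevalonate genes, which lead to squalene, 10 genes of the steps after squalene, 5 genes of SREBP control and 9 genes of uptake and export. Because the members were chosen with this comparison in view, their counts and p-values describe these libraries and are not an independent test of the pathway.

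RNA was measured by poly(A) sequencing in cerebral cortex of C57BL/6N mouse embryos at E18.5, shortly before birth. The CAP1-KO group (genotype Cap1flx/flx,Nestin-CRE; libraries FCRE3, FCRE4 and FCRE5) was compared with the Control group (genotype Cap1 flx/flx; libraries FF1, FF2 and FF4), with 3 libraries each. Both groups carried the floxed Cap1 alleles, and CAP1-KO also carried a Cre recombinase transgene driven by the promoter of Nestin, a gene of neural progenitors, so cells of other origin can keep Cap1. CAP1 is an actin-binding protein, and the design asks which genes change when it is lost. No group carried Cre alone, so effects of Cre and of CAP1 loss cannot be told apart.

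Cholesterol in the brain is made mostly on site, because plasma lipoproteins do not cross the blood-brain barrier. Acetyl-CoA is built through mevalonate into isoprenoid units and squalene, which is closed into a ring and trimmed to cholesterol. When sterols run low in the endoplasmic reticulum, SCAP carries the membrane-bound factors SREBP1 and SREBP2 to the Golgi, where they are cut free to switch on the genes of synthesis, while INSIG proteins hold SCAP back when sterols are plentiful. Oxysterols, which form when cholesterol is abundant, activate LXR receptors, and these raise exporters such as ABCA1.

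The promoters of 8 of the 10 members past the threshold are shown first, 7 that fell and Abca1, which rose, because SREBP sites and CCAAT boxes (bound by the factor NF-Y) are textbook features of sterol gene promoters. Those of Fdps and Stard4 are not shown. RefSeq promoter windows (build GRCm38.p6, from 250 bases before to 50 after a start) were matched for 26 of the 32 members. The stretches printed end at the base before the start listed for the window and are given on the strand of the gene. For Mvk, Lss, Dhcr7 and Abca1 that start lies inside the annotated gene span, so some or all of the printed bases lie within the gene. They lie at chr17:12960726-12960875 (Acat2, minus strand), chr13:119690101-119690350 (Hmgcs1, plus), chr5:114444119-114444268 (Mvk, plus), chr10:76531455-76531604 (Lss, plus), chr19:6067851-6068000 (Tm7sf2, minus), chr7:143830064-143830213 (Dhcr7, plus, 1 of 3 listed starts), chr5:28071162-28071411 (Insig1, plus) and chr4:53159896-53160045 (Abca1, minus). Where a gene had several windows, the one with the most CCAAT boxes was printed, and the other windows of Dhcr7 held 0. Stretches are 150 bases long, or 250 for Hmgcs1 and Insig1. The longer stretch takes in the only CCAAT box of Insig1, 216 bases before its start. The boxes shown were thus in part selected. Capitals mark a CCAAT box on either strand, read as CCAAT or ATTGG, and the SREBP site of Hmgcs1.
Acat2: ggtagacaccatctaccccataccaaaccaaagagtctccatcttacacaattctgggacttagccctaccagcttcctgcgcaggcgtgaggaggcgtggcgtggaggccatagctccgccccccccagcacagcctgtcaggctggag
Hmgcs1: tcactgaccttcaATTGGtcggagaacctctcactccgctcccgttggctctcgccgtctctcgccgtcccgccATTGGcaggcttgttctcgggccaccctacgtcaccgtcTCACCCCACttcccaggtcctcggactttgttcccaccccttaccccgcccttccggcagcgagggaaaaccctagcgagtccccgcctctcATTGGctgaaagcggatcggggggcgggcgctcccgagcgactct
Mvk: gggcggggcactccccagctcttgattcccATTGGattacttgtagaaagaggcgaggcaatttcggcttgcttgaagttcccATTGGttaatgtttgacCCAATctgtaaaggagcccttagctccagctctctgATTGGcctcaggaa
Lss: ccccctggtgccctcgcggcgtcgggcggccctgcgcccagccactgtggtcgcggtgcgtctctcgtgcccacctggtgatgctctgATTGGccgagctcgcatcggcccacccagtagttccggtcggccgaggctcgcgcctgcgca
Tm7sf2: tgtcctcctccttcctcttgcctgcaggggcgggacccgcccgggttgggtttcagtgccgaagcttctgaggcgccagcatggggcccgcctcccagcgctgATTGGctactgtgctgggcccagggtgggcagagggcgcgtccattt
Dhcr7: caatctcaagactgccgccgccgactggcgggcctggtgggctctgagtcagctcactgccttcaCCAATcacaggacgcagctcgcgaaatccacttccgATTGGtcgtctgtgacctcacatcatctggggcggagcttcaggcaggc
Insig1: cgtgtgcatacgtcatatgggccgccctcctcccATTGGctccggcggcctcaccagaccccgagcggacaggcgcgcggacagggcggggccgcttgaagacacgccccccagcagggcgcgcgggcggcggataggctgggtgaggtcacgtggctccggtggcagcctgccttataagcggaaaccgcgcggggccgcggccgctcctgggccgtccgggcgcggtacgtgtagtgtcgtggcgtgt
Abca1: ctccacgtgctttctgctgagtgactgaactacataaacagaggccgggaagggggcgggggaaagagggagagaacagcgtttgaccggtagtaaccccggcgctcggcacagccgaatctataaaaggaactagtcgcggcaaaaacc

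Matches were sought on both strands over the whole windows. The letters CCAAT were found for 21 of 26 members (80.8%), against 42.93% of 10781 tested genes with a window. Counted by promoter, since a gene can have several, it was in 22 of 34 member promoters (64.7%), against 37.41% of all 32851 promoters. Among the steps after squalene 9 of 9 matched genes held the box, and among the mevalonate genes 5 of 6. Of the members lower in CAP1-KO past the threshold 6 of 7 with a window held it, as did 15 of 18 members that were not past it. The SREBP site, written TCACNCCAC, was found for 1 member, Hmgcs1, 137 bases before its start (3.8% of 26 members), against 1.37% of tested genes with a window. The GC box GGGCGG was found for 24 of 26 members (92.3%) and 69.73% of tested genes. The LXR element DR4 was sought only as an exact AGGTCA repeated after 4 bases. It was found for 0 of 26 members and 0 of 10781 tested genes. That exact form was in 5 of all 32851 promoters, so the search could not set members apart, and variant forms were not sought. Among the matches in member promoters 0 pairs of different motifs overlapped. A match describes letters and is not a shown binding site, and no match says only that the letters are not in the window.

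Recovered depth was 32443864 to 36302598 reads a library, and the members had 238 to 34811 reads each. The floxed gene Cap1 was lower in CAP1-KO, at 86.7, 85.9 and 82.9 CPM, against 194, 193 and 166 CPM in Control, and with the floxed exons not named these reads do not measure intact transcript. Cortical markers were present, with a summed level of Neurod6, Tbr1, Bcl11b and Rbfox3 of 1073 to 1206 CPM in CAP1-KO and 1136 to 1526 CPM in Control, FF4 being the low Control library. The sex-linked RNAs were not balanced: Xist measured 2398 to 2653 CPM in CAP1-KO, against 0.58 CPM in FF1, 2296 CPM in FF2 and 2.05 CPM in FF4. Ddx3y, a Y-linked RNA, measured 0.05, 0 and 0.03 CPM in CAP1-KO, against 58.9 CPM in FF1, 0.03 CPM in FF2 and 64.05 CPM in FF4. Within Control only FF2 can thus be set against CAP1-KO at like Xist. The labels give no sex, and against FF1 and FF4 effects of sex and of genotype cannot be told apart. In bulk tissue, fewer cells of a type and less RNA per cell cannot be told apart.

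Of the 18 enzymes of cholesterol synthesis among the members 7 fell in CAP1-KO past the threshold (limma on log2(CPM + 1), Benjamini-Hochberg adjusted p under 0.05 over all 13885 tested genes), 0 rose and 11 did not pass. The 7 were Acat2, Hmgcs1, Mvk, Fdps, Lss, Tm7sf2 and Dhcr7. All 18 log2 fold changes were negative (with total-read scaling 17, Ebp being positive), 17 of the enzymes had no overlap between the groups, and the exception was Ebp. The median log2 fold change of the 18 enzymes was -0.43, against -0.01 over all tested genes, and the CAP1-KO mean of the 17 separated enzymes was 56.5% to 93.2% of Control (median 74.1%). Over all 32 members 9 fell (28.1%), 1 rose and 22 did not pass, against 0.403% of tested genes that fell, 0.562% that rose and 0.965% called in either direction. The groups did not overlap for 22 members that were lower and 1 that was higher, against 14.6% and 11.1% of all tested genes. The same 10 members are called in the authors' deposited table at an FDR under 0.05, where 0.813% of 27179 genes are called, 0.412% lower and 0.401% higher. The 9 lower members made up 16.1% of the 56 tested genes that fell. The counts turned on single libraries, as did those of all tested genes. Without FF1 1 member fell (Tm7sf2), against 0.0432% of all tested genes, and without FF2 1 (Tm7sf2), against 0.0792%. Without FF4 20 fell, against 18.9%, and without FCRE3 2, against 0.0504%. Without FCRE4 12 fell, against 1.26%, and without FCRE5 0, against 0.0216%. With the Xist level as a covariate 0 members passed, against 3 lower and 23 higher of all tested genes. The median of the enzymes in that fit was -0.46, and against FF2 alone it was also -0.46. FF2 is the only Control library of like Xist, so the group term of the Xist fit rests mostly on FF2. At an unadjusted p under 0.05 there were then 21 of 32 members (65.6%), against 17.5% of all tested genes in that fit. Without FCRE5 there were 22 (68.8%), against 14.4% of all tested genes.

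**Figure D1:**
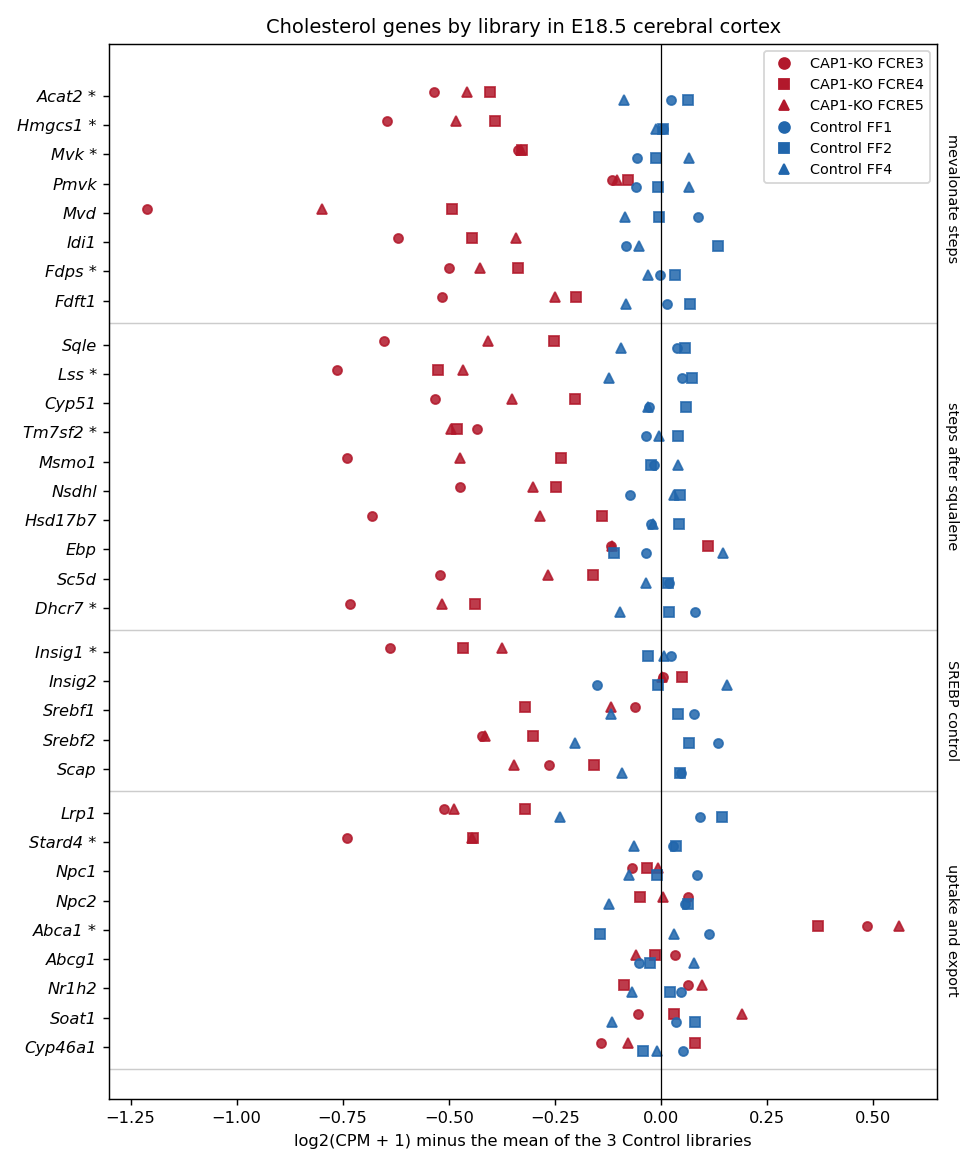
Level of each of the 32 members in each library, as log2(CPM + 1) minus the Control mean (x axis), ordered by step; red marks CAP1-KO and blue Control, marker shape the library, and an asterisk an adjusted p under 0.05 in limma. For 17 of 18 enzymes all red points lie left of all blue points, while most of the lower block of uptake and export overlaps and Abca1 lies to the right.

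Among the mevalonate genes 4 of 8 fell, 0 rose, and all 8 were separated between the groups, with a median log2 fold change of -0.44. Over all tested genes 0.403% fell and 0.562% rose, while 14.6% were separated and lower and 11.1% separated and higher. The counts of each step below are to be read beside these shares. Values below are in CPM in the order FCRE3, FCRE4, FCRE5 for CAP1-KO and FF1, FF2, FF4 for Control. Acat2, the cytosolic thiolase that joins acetyl-CoA units, measured 118, 129 and 124.5 CPM in CAP1-KO and 174, 179 and 161 CPM in Control. Every CAP1-KO library was lower than every Control library, and Acat2 fell by 0.47 on the log2 scale (SE 0.06, limma adjusted p = 0.0134). Of its 50-base stretches 45.9% occur also in its paralog Acat3, which had under 1 CPM in every library. Hmgcs1, which makes HMG-CoA and was the most abundant member per length at 210.2 CPM per kb in CAP1-KO and 298 CPM per kb in Control, measured 659, 787 and 739 CPM in CAP1-KO and 1036, 1036 and 1024 CPM in Control. The Control libraries were nearly equal, FCRE3 was the lowest library, and the log2 fold change was -0.51 (SE 0.07, limma adjusted p = 0.0290).

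Mvk, mevalonate kinase, measured 32.4, 32.6 and 32.6 CPM in CAP1-KO and 39.6, 40.85 and 43.2 CPM in Control. Its CAP1-KO libraries were nearly equal, and its log2 fold change was -0.33 (SE 0.05, limma adjusted p = 0.0357). Scaling to total reads ended that call (limma adjusted p = 0.0952, with a range of 0.00374 to 0.237 over the alternatives). Pmvk, the next kinase, was separated by a narrow gap, with 45.2, 46.5 and 45.6 CPM in CAP1-KO and 47.1, 48.8 and 51.45 CPM in Control, and did not pass (log2 fold change -0.10, limma adjusted p = 0.288). Mvd, the decarboxylase that yields the isoprenoid unit, had the lowest log2 fold change of the 32 members, -0.83 (SE 0.16), yet did not pass (limma adjusted p = 0.0631). It measured 27.5, 46.0 and 37.0 CPM in CAP1-KO and 69.2, 64.9 and 61.3 CPM in Control, so the CAP1-KO libraries were far apart but all lower.

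Idi1, which isomerises the isoprenoid unit, measured 6.38, 7.34 and 7.96 CPM in CAP1-KO and 9.71, 11.5 and 9.94 CPM in Control. The groups were separated and the log2 fold change of -0.47 did not pass (SE 0.10, limma adjusted p = 0.0819). Fdps, farnesyl diphosphate synthase, from which the cholesterol and isoprenoid branches part, measured 89.0, 99.8 and 93.7 CPM in CAP1-KO and 126, 129 and 123.5 CPM in Control. It fell in every CAP1-KO library relative to every Control library, with a log2 fold change of -0.42 (SE 0.05, limma adjusted p = 0.0148). Fdft1, squalene synthase and the first enzyme given over to sterols, measured 122, 152 and 147 CPM in CAP1-KO and 177, 183.5 and 165 CPM in Control. FCRE3 was the low library and the log2 fold change of -0.32 did not pass (limma adjusted p = 0.108). Of the 50-base stretches of Idi1 21.3% occur also in the annotation Gm13502. Fdps (GRCm38 chr3:89093588-89101967, minus strand) shares 26.7% of its exonic bases with the same-strand annotation Gm43738, and Fdft1 18.3% with Ctsb on the opposite strand. Ctsb had a log2 fold change of 0.18, and how the read counter divided such reads, with or without strand, is not given in the sources used here.

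Among the steps after squalene 3 of 10 fell, 0 rose, and 9 of 10 were separated, with a median log2 fold change of -0.40. Over all tested genes 0.403% fell and 14.6% were separated and lower. Tm7sf2, a sterol reductase, had the lowest adjusted p of the members (0.00684, limma) and a log2 fold change of -0.47 (SE 0.05). It measured 30.5, 29.5 and 29.2 CPM in CAP1-KO and 40.6, 42.8 and 41.5 CPM in Control, with little spread in either group, and was called in 12 of 14 alternative settings. Its exons share 532 bases with Vps51 on the same strand, and Vps51 had a log2 fold change of 0.07 (limma adjusted p = 0.409). Lss, lanosterol synthase, which closes the sterol rings, measured 49.3, 58.3 and 60.8 CPM in CAP1-KO and 87.4, 88.8 and 77.4 CPM in Control, a log2 fold change of -0.59 (SE 0.09, limma adjusted p = 0.0309). Dhcr7, the reductase of a last step to cholesterol, measured 40.6, 50.1 and 47.4 CPM in CAP1-KO and 72.1, 69.1 and 63.7 CPM in Control, a log2 fold change of -0.56 (SE 0.08, limma adjusted p = 0.0309). For both genes FCRE3 was the lowest library and FF4 the lowest Control library, and no library crossed between the groups.

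The other 7 enzymes after squalene did not pass. Sqle, squalene epoxidase and a rate-limiting step, measured 167, 221 and 199 CPM in CAP1-KO and 271, 275 and 247 CPM in Control (log2 fold change -0.44, limma adjusted p = 0.0870). Cyp51, the lanosterol demethylase, measured 187, 235 and 212 CPM in CAP1-KO and 265, 282 and 265 CPM in Control (log2 fold change -0.36, limma adjusted p = 0.0873). Both were separated, and the CAP1-KO libraries were ordered FCRE3, FCRE5, FCRE4. Msmo1, Nsdhl and Hsd17b7 act together to remove methyl groups from the ring. Msmo1 measured 66.0, 94.1 and 79.7 CPM in CAP1-KO and 109.7, 109 and 114 CPM in Control. Nsdhl measured 39.6, 46.5 and 44.8 CPM in CAP1-KO and 52.6, 57.1 and 56.6 CPM in Control. Hsd17b7 measured 21.85, 32.3 and 29.1 CPM in CAP1-KO and 35.04, 36.8 and 35.2 CPM in Control. Their log2 fold changes were -0.48, -0.34 and -0.37, with limma adjusted p-values of 0.0910, 0.0748 and 0.149, and FCRE3 was again the lowest library in all 3. Sc5d, a sterol desaturase, measured 45.7, 58.95 and 54.7 CPM in CAP1-KO and 66.8, 66.8 and 64.35 CPM in Control (log2 fold change -0.32, limma adjusted p = 0.111). Ebp, the sterol isomerase, was the enzyme whose groups overlapped, with 7.91, 9.44 and 7.93 CPM in CAP1-KO and 8.43, 7.95 and 9.70 CPM in Control (log2 fold change -0.04, limma adjusted p = 0.8475). The sign of Ebp was positive with the Xist covariate, without FF4 and with total-read scaling. Nsdhl and Ebp lie on the X chromosome, and against FF2 alone, the Control library of like Xist level, they had log2 fold changes of -0.38 and 0.07.

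**Figure D2:**
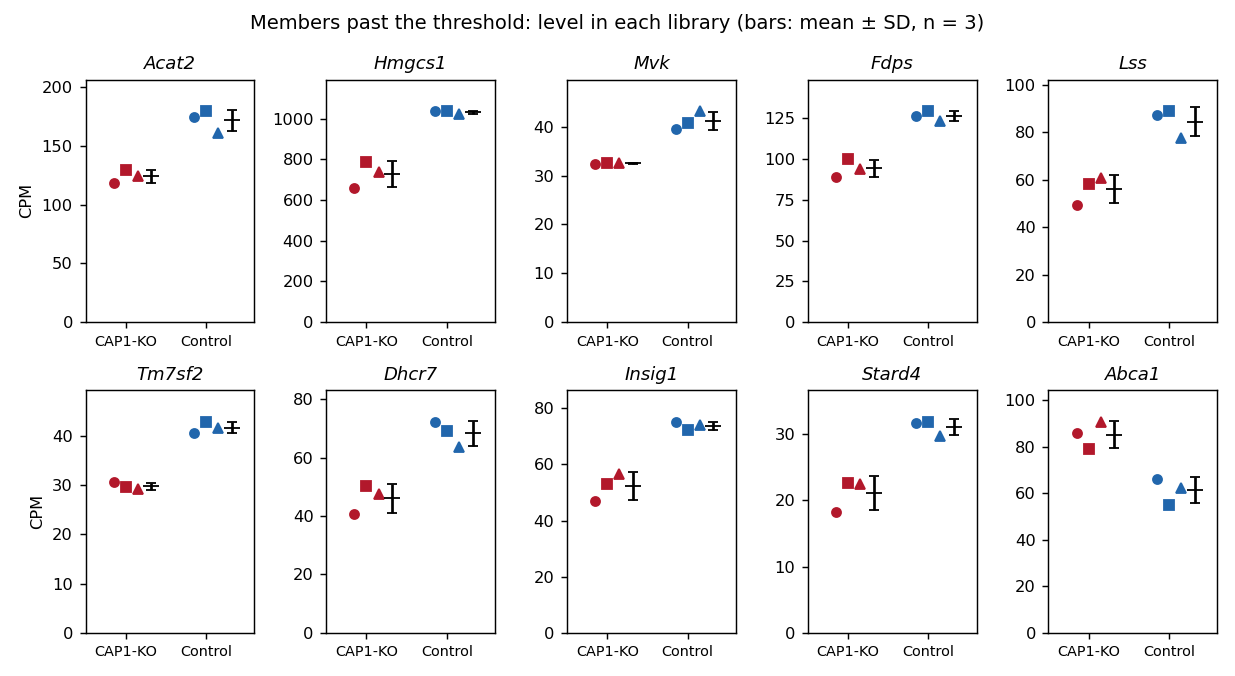
Level in CPM of the 10 members past the threshold in each CAP1-KO (red, left) and Control (blue, right) library, with the mean ± SD of 3 libraries as black bars. The 9 lower members have CAP1-KO means at 66.4% to 79.0% of Control, and Abca1 has a CAP1-KO mean at 139% of Control.

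Among the SREBP control genes Insig1 fell and the other 4 did not pass. Insig1, the sterol-regulated anchor of SCAP and itself an SREBP target, measured 47.1, 53.2 and 56.75 CPM in CAP1-KO and 75.1, 72.3 and 74.2 CPM in Control. The Control libraries were close together and all higher, and the log2 fold change was -0.49 (SE 0.07, limma adjusted p = 0.0266). Its paralog Insig2 measured 31.8, 32.8 and 31.7 CPM in CAP1-KO and 28.5, 31.6 and 35.4 CPM in Control, with the CAP1-KO values inside the Control range (log2 fold change 0.02, limma adjusted p = 0.912). Srebf2, which encodes the SREBP that mainly drives cholesterol genes, measured 244, 266 and 245 CPM in CAP1-KO and 359.8, 343 and 285 CPM in Control (log2 fold change -0.38, limma adjusted p = 0.0913). Scap measured 98.2, 106 and 92.6 CPM in CAP1-KO and 122, 122 and 111 CPM in Control (log2 fold change -0.26, limma adjusted p = 0.0983). For both genes the groups were separated and FF4 was the Control library nearest to CAP1-KO. Srebf1, which encodes the SREBP that mainly drives fatty acid genes, measured 52.0, 43.25 and 49.9 CPM in CAP1-KO and 57.3, 55.85 and 49.88 CPM in Control, where FCRE5 and FF4 met and the groups overlapped (log2 fold change -0.17, limma adjusted p = 0.273).

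Of the 9 uptake and export genes Stard4 fell, Abca1 rose and 7 did not pass, with a median log2 fold change of -0.01. Stard4 (GRCm38 chr18:33199138-33213862, minus strand), a soluble carrier of cholesterol between membranes, measured 18.2, 22.6 and 22.5 CPM in CAP1-KO and 31.6, 31.8 and 29.6 CPM in Control (log2 fold change -0.54, SE 0.09, limma adjusted p = 0.0420). Abca1, which exports cholesterol to apolipoproteins, measured 85.9, 79.2 and 90.6 CPM in CAP1-KO and 66.1, 55.1 and 62.4 CPM in Control (log2 fold change 0.47, SE 0.08, limma adjusted p = 0.0425). Both were separated, in opposite directions. Lrp1, an endocytic receptor for apolipoprotein particles, measured 544, 621 and 553 CPM in CAP1-KO and 827, 858 and 658 CPM in Control (log2 fold change -0.44, limma adjusted p = 0.0957), with FF4 well below the other Control libraries.

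The remaining uptake and export genes overlapped between the groups, with log2 fold changes between -0.05 and 0.06 and limma adjusted p-values of 0.730 or more. Npc1, which with Npc2 passes cholesterol out of lysosomes, measured 63.8 to 66.7 CPM in CAP1-KO and 63.5 to 71.1 CPM in Control. Npc2 measured 86.2 to 93.2 CPM in CAP1-KO and 81.9 to 93.25 CPM in Control. Abcg1, another exporter and like Abca1 an LXR target, measured 23.7, 22.9 and 22.15 CPM in CAP1-KO and 22.25, 22.7 and 24.5 CPM in Control, and the difference between its change and that of Abca1 was not tested. Nr1h2, which encodes LXR-beta, measured 42.7 to 48.6 CPM in CAP1-KO and 43.2 to 46.9 CPM in Control. Soat1, which esterifies cholesterol for storage, measured 16.5 to 19.7 CPM in CAP1-KO and 15.7 to 18.2 CPM in Control. Cyp46a1, the neuronal enzyme that turns cholesterol into an oxysterol able to leave the brain, measured 27.9 to 32.7 CPM in CAP1-KO and 30.0 to 32.1 CPM in Control.

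The CAP1-KO libraries were ordered alike across the synthesis genes. FCRE3 was the lowest CAP1-KO library for 17 of 18 enzymes, with Tm7sf2 the exception, and FCRE4 the highest for 15 of 18, whereas FCRE3 was lowest for 33.5% of all tested genes. The median deviation of the enzymes from the Control mean was -0.53 in FCRE3, -0.29 in FCRE4 and -0.38 in FCRE5 on the log2 scale, against -0.01 in FF1, 0.04 in FF2 and -0.03 in FF4. The SD between libraries had a median of 0.147 in CAP1-KO and 0.0638 in Control over the enzymes, and was larger in CAP1-KO for 13 of 18, while over all tested genes it was larger in CAP1-KO for 5544 of 13885. Without FCRE3 the median log2 fold change of the enzymes was -0.34, and without FCRE4 -0.47. Meningeal fibroblast markers also split the CAP1-KO libraries, with sums of 11.4, 75.9 and 60.4 CPM (same order of libraries), against 11.6 to 13.3 CPM in Control. Their part in the enzyme values was not tested.

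FF4 differed from the other Control libraries in some members and not in others. The median enzyme in FF4 lay -0.05 from the mean of FF1 and FF2, and against FF4 alone the enzymes had a median log2 fold change of -0.38, against FF2 alone of -0.46. The median of the SREBP control genes was -0.16 against FF4 alone and -0.30 against FF2 alone. Picked after their values were seen, Srebf2 had a log2 fold change of -0.18 against FF4 alone and -0.45 against FF2 alone, and Lrp1 -0.20 and -0.58. Summed cortical neuron markers were 1136 CPM in FF4, against 1500 CPM in FF1 and 1526 CPM in FF2, so FF4 lay within the CAP1-KO range there. For Insig1, Stard4 and Abca1 the log2 fold changes were -0.50, -0.48 and 0.44 against FF4 alone and -0.46, -0.58 and 0.62 against FF2 alone, none of which has a test.

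**Figure D3:**
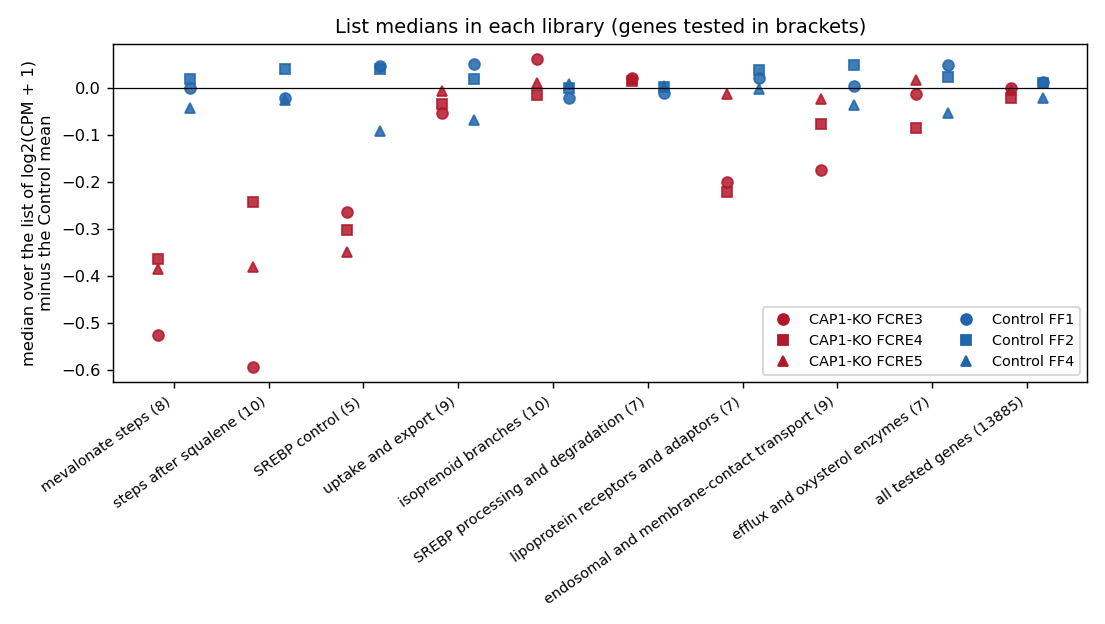
Median over each gene list of log2(CPM + 1) minus the Control mean (y axis) in each library, with CAP1-KO (red) left of Control (blue) and the number of tested genes in brackets. Mevalonate, post-squalene and SREBP control medians lie at -0.24 or lower in every CAP1-KO library, and those of the isoprenoid branches, SREBP processing and all tested genes lie near 0.

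Other genes of the pathway, in 5 lists, had 0 of 40 tested members past the threshold in limma and 0 in limma-voom. Limma called 0.965% of all tested genes, so a count of 0 does not set these lists apart. At an unadjusted p under 0.05 there were 13 (32.5%), against 23.0% of all tested genes. The isoprenoid branches, which leave the pathway at farnesyl diphosphate, had 10 tested genes and a median log2 fold change of 0.02. Their most abundant genes by CPM were Nus1, of dolichol synthesis, at 88.9 CPM in CAP1-KO and 97.1 CPM in Control, and Fnta, of protein prenylation, at 61.7 CPM in CAP1-KO and 56.2 CPM in Control. The SREBP processing and degradation list had 7 tested genes and a median of 0.03. There Mbtps1, the first SREBP protease, had 124 CPM in CAP1-KO and 116 CPM in Control, and Erlin2, a membrane protein of the endoplasmic reticulum, had 119.5 CPM in CAP1-KO and 117 CPM in Control. Lipoprotein receptors and adaptors had 7 tested genes and a median of -0.20, with Lrp8 at 373 CPM in CAP1-KO and 437 CPM in Control and Sort1 at 201 CPM in CAP1-KO and 232 CPM in Control. Endosomal and membrane-contact transport had 9 tested genes and a median of -0.08. Gramd1a, a sterol carrier at membrane contacts, had a log2 fold change of -0.28, and Osbp, an oxysterol-binding exchanger, of -0.18. Efflux and oxysterol enzymes had 7 tested genes of 10 and a median of 0.04, and the transporters Abca2 and Abcg4 had log2 fold changes of -0.21 and -0.17. Against FF4 alone the median of the lipoprotein receptors was -0.02 and that of the endosomal list -0.0023.

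Summed markers of microglia, endothelium and choroid plexus did not overlap between the groups, while those of the other cell types below did. Microglial markers summed to 59.0, 75.0 and 77.2 CPM in CAP1-KO and 43.5, 38.4 and 52.0 CPM in Control, with 8 of 8 log2 fold changes positive and 0 called by limma or limma-voom (7 higher at an unadjusted p under 0.05, against 7.74% of all tested genes). Endothelial markers summed to 144, 149 and 160.2 CPM in CAP1-KO and 194, 195 and 182 CPM in Control. Of these 7 of 7 were negative and 2 called, Flt1 and Kdr, while Pecam1 and Esam overlapped between the groups. Over all tested genes 7176 of 13885 were negative, and limma called 0.403% lower and 0.562% higher. Astrocyte markers summed to 116 to 163 CPM in CAP1-KO and 83.8 to 131 CPM in Control, so the groups overlapped. Oligodendrocyte lineage markers, whose cells later make much of the brain's cholesterol, summed to 132 to 158 CPM in CAP1-KO and 156 to 171 CPM in Control. These sums overlapped as well, and the myelin genes Mog and Mag had under 1 CPM. Choroid plexus markers, mostly Ttr, summed to 49.4 to 109 CPM in CAP1-KO and 0.27 to 1.93 CPM in Control, with Kl, Folr1 and Kcnj13 under 1 CPM. Sums of mural, radial glia, striatal and red blood cell markers also overlapped between the groups, with means of 96.5, 819, 117 and 169 CPM in CAP1-KO and 95.5, 806, 114 and 133 CPM in Control. The part of these cells in the values of the 32 genes was not tested.

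The 10 called members differed in how far their calls held over 14 alternative settings with a test. Tm7sf2 was called in 12, Insig1 in 10, Acat2 and Fdps in 9, Hmgcs1, Lss, Dhcr7, Stard4 and Abca1 in 8 and Mvk in 7. All 10 kept their sign in every one of these settings. The groups of all 10 did not overlap, so leaving out a library could not have turned the sign. The enzymes had negative log2 fold changes in all 14 settings with the exception of Ebp, as given above. For the enzymes whose groups did not overlap, the sign was likewise fixed when a library was left out.

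**Figure D4:**
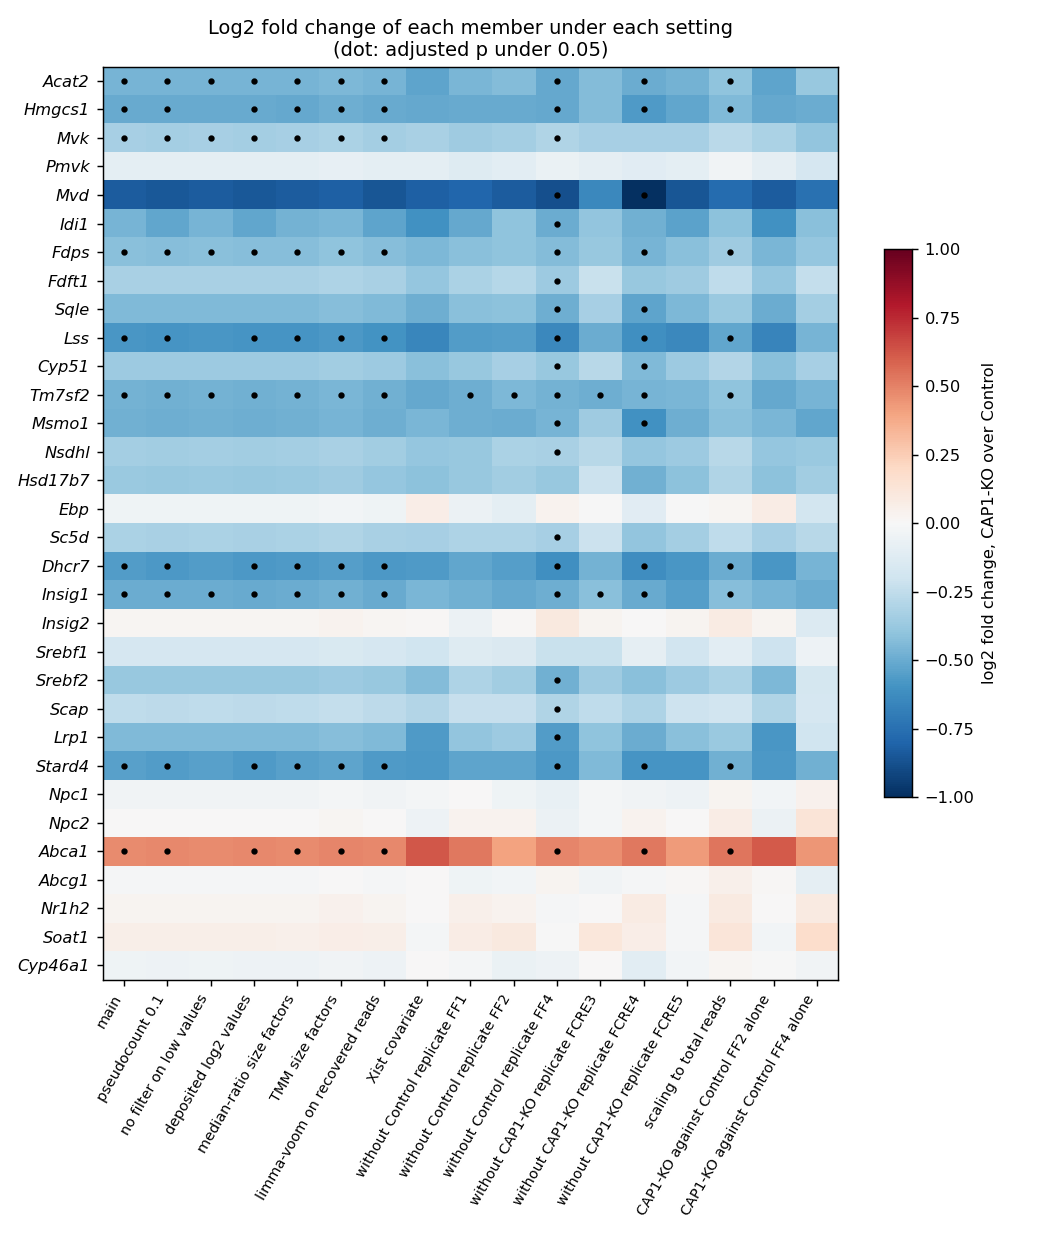
Log2 fold change of CAP1-KO over Control for each member (rows) under each setting (columns), blue for lower and red for higher in CAP1-KO, with a dot where the limma adjusted p is under 0.05; the 2 columns at the right compare with 1 Control library and have no test. The colours of the called members stay alike. The dots thin out with no filter on low values, where the Xist covariate enters, or where FF1, FF2, FCRE3 or FCRE5 is left out.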

How the data were processed

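Total RNA was DNase-treated, selected for poly(A) and made into stranded libraries, per the labels' protocols. The submitters' processing notes name STAR, edgeR, GRCm38 and mm10, with no tool versions. Which counter and annotation were used is not stated in those notes. The values of each library are log2 normalized counts made by the authors, per the file headers. The deposited table also holds, for CAP1-KO against Control, a log2 fold change, an average log2 CPM, an F score, a p-value and an FDR from the authors.

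Columns were assigned to groups by genotype in their names (FF, floxed without Cre; FCRE, floxed with Cre). The libraries shared 1 lowest value, which was subtracted after taking antilogs to give CPM, and 100% of values then came within 0.01 of a whole read. The deposited values were log2 and not counts, so the main test was limma 3.58.1 (R 4.3.3, intensity trend) on log2(CPM + 1) for the 13885 genes that averaged 1 CPM or more, with Benjamini-Hochberg adjustment over all of them and a threshold of 0.05. Fold changes understate those of low genes. The main model held the group alone. The fit was first tested on simulated data. An exact permutation test of 3 against 3 cannot give p below 0.1, so p-values rest on limma's moderated variance. Nothing beyond the labels' replicate wording says that libraries came from separate embryos, so p-values measure the spread between these libraries. No pair of replicates agreed within sampling noise. Depth gave 31.2 to 37.3 reads per CPM, and intervals of counting error were not computed. Orders and overlaps that rest on narrow gaps between libraries can therefore lie within counting error.

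The 32 members, the step lists, the 5 companion lists and the markers were chosen with earlier results of these data known. Of the companion lists, called genes were to be named, or with none the 2 of highest mean CPM. Some listed genes are not reported here and were left out of list medians and sums. Levels per kb used the longest GENCODE transcript, and promoters came from RefSeq (GRCm38.p6). Rows with no symbol numbered 1169, and 25275 rows matched RefSeq. Alternatives were a pseudocount of 0.1, no filter, the deposited log2 values, median-ratio and TMM size factors, limma-voom on recovered reads, the Xist level as covariate and leaving out each library. Figures were drawn with matplotlib 3.10.9 (Python 3.11.15).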

Additional observations from a re-analysis of the deposited data

How the results depend on the processing

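Scaling to total reads and the comparisons with FF2 or FF4 alone (values with no test) were chosen after seeing the data. Members past the threshold were 9 lower and 1 higher with a pseudocount of 0.1, the deposited log2 values, median-ratio or TMM size factors and limma-voom, and 8 and 1 with total reads. With no filter 5 were lower and 0 higher (20 lower of all 21292 genes then tested), and with the Xist covariate 0 and 0 (3 lower and 23 higher of all genes). Leaving out a library gave 0 to 20 lower and 0 to 1 higher members, against 3 to 2623 lower and 33 to 1299 higher of all genes, and without FF4 18.9% of all genes were lower. The cause of the lost calls was not tested. The median of the 18 enzymes stayed between -0.47 and -0.34. With total reads the median of all genes was 0.06, and the medians were -0.19 for SREBP control, 0.0502 for uptake and export, 0.0806 for the isoprenoid branches, 0.0949 for SREBP processing, -0.0113 for endosomal transport and 0.0949 for efflux. Against FF4 alone they were -0.16 for SREBP control, 0.0398 for uptake and export, 0.0023 for SREBP processing, -0.0241 for lipoprotein receptors and -0.0023 for endosomal transport. SREBP processing had 0.044 with TMM, 0.0585 with the Xist covariate, 0.0554 against FF2 alone and 0.0015 to 0.062 over the left-out libraries. Efflux had -0.0864 with the Xist covariate, -0.10 against FF2 alone and -0.0756 to 0.0173 over the left-out libraries. The planned edgeR test was not run, and limma-voom was the test of the recovered reads. No paired analysis was possible because the columns carry the numbers 1, 2 and 4 in Control and 3, 4 and 5 in CAP1-KO, of which 1 is shared. Members had at least 238 reads, and there were 3 libraries a group.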

Other observations

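A pair of genes outside the 32 were noticed after their values were seen. Scarb1, a receptor for high-density lipoprotein, measured 23.1, 25.8 and 22.65 CPM in CAP1-KO and 34.0, 33.2 and 29.7 CPM in Control, with no overlap, and missed the threshold (log2 fold change -0.42, limma adjusted p = 0.0545). Apod, an apolipoprotein of glia and border cells, measured 5.44, 10.4 and 8.95 CPM in CAP1-KO and 4.58, 3.84 and 3.69 CPM in Control (log2 fold change 0.84, limma adjusted p = 0.0933), and FCRE3 was its lowest CAP1-KO library.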
